A study of Mus musculus with 2 samples.

Results

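Collagens, laminins and the other genes of the extracellular matrix were examined in the germinal layers (ventricular and subventricular zone, VZ–SVZ) of mouse cortex at E13.5, with and without the transcriptional co-repressor Rcor2. The members were all gene symbols of the forms Col#a#, Lama#, Lamb# and Lamc#, together with Fn1, Fbn1, Fbn2, Nid1, Nid2, Hspg2 and Sparc. There were 59 such genes among the 21896 measured. By their known place in the matrix they were set apart as 23 basement membrane genes, 11 fibrillar collagens, 9 fibril-associated collagens, 7 genes of collagen VI, fibrillins and fibronectin, 4 transmembrane collagens and 5 other collagens. The control library was Rcor2fl/fl (1 library), from embryos with LoxP sites in both Rcor2 alleles. It was compared with 1 Rcor2cko library, whose floxed exons were deleted by Cre recombinase under Nestin control. Both came from crosses of Rcor2fl/+ NesCre parents on a strain labelled C57/BL6. Nestin-driven Cre acts in neural progenitors and their progeny, so that blood vessels and meninges are not its main targets. The study calls the Rcor2fl/fl controls wild type, and their genotype name holds no NesCre. The number of embryos behind each library was not given in the sources used here.

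Matrix proteins are secreted and assembled outside the cell. The basement membrane is a sheet of laminin trimers (1 alpha, 1 beta and 1 gamma chain) and a collagen IV network, joined by nidogens and the proteoglycan perlecan (Hspg2). In the embryonic cortex such a sheet lies under the pia, where the end-feet of radial glia attach, and around the blood vessels. Fibrillar collagens such as types I and III form the fibres of connective tissue, including the meninges. Fibril-associated collagens sit on the surface of these fibres, and fibronectin and the fibrillins form fibrils and microfibrils of their own.

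Collagen IV genes lie head to head in pairs, and their starts are shown here. In 2 of the 3 pairs, Col4a1 with Col4a2 and Col4a5 with Col4a6, the partners had nearly the same difference between the libraries. For Col4a1 and Col4a2 these log2 differences were only 0.04 and 0.06, and their intervals included no change. Whether the start regions have a part in these values was not tested. All positions are in GENCODE vM1 on NCBIM37 (mm9), counted from 1. Col4a1 (chromosome 8, 11198423 to 11312826, minus strand) and Col4a2 (11312805 to 11449287, plus strand) overlap by 22 bases at their 5′ ends, where reads cannot be told apart without strand. The starts of Col4a4 (chromosome 1, 82447298 to 82583424, minus strand) and Col4a3 (82583496 to 82718634, plus strand) are 72 bases apart. Those of Col4a6 (chromosome X, 137599946 to 137908619, minus strand) and Col4a5 (137909928 to 138123778, plus strand) are 1309 bases apart. For the first 2 pairs the 300 bases around the midpoint between the starts are given on the plus strand (chr8:11312666-11312965 and chr1:82583311-82583610). For Col4a5 (chrX:137909678-137909977, plus strand) and Col4a6 (chrX:137908570-137908869, minus strand) the window runs from 250 bases before the start to 50 after it. Capitals mark CCAAT and GGGCGG on either strand, which did not overlap each other.
Col4a1-Col4a2: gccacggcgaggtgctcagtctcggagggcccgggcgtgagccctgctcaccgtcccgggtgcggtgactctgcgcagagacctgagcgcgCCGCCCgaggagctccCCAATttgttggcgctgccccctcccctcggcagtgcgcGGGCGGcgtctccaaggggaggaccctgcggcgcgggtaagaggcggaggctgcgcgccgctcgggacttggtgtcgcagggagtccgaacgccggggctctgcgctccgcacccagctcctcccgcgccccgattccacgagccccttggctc
Col4a4-Col4a3: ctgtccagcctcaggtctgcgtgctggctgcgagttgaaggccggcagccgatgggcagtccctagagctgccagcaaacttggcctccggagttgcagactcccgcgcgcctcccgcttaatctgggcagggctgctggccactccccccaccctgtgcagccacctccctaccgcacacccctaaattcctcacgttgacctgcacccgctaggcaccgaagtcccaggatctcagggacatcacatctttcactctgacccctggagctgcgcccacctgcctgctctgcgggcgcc
Col4a5: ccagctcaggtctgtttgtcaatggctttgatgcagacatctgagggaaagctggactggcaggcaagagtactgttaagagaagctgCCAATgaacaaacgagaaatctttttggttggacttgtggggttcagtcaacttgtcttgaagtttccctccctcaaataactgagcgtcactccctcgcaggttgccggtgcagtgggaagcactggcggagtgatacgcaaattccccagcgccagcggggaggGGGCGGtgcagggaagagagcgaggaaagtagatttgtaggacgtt
Col4a6: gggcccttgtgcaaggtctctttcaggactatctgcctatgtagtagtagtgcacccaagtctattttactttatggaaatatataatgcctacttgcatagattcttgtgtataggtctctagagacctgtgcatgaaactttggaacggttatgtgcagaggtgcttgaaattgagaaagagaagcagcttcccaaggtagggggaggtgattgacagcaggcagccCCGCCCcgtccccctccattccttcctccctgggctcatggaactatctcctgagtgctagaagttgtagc
Matches to CCAAT numbered 1 in the Col4a1-Col4a2 window and 1 in the Col4a5 window. Those to the other motif numbered 2 in the Col4a1-Col4a2 window and 1 each in the windows of Col4a5 and Col4a6. Of 20785 gene starts taken from 250 bases before to 50 after, 38.2% held the first motif and 45.6% the second. A further motif, TATAAA, was in 13.1% of the starts and had no match in the 4 windows. The GC content was 74.0% in the Col4a1-Col4a2 window, 65.3% in the Col4a4-Col4a3 window, 52.7% at Col4a5 and 48.3% at Col4a6.

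Many collagen genes also share a structure in which coding exons are whole multiples of the 9 bases that encode the collagen triplet of glycine and any other pair of residues. In the 11 fibrillar collagens, between 74.6% (Col5a3) and 88.5% (Col1a2) of coding exons had a length divisible by 9. In the laminins this share was at most 18.5% (Lama2). Col22a1, which had the largest change of the members compared, had 73.0%, with 28 of its 63 coding exons exactly 54 nt long. In all 28 of these exons a glycine codon began every 9 nt. An exon of Col22a1 (chr15:71782953-71783006, minus strand) and an exon of Col2a1 (chr15:97828976-97829029, minus strand) show this repeat, with the glycine codons in capitals.
Col22a1 54-nt exon: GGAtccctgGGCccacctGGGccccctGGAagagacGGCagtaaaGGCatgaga
Col2a1 54-nt exon: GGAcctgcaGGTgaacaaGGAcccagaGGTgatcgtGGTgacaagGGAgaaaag

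Expression is given in FPKM, which corrects fragment numbers for transcript length and library depth. The low FPKM values fall on steps of whole fragments, from which scaling totals of 18841662 fragments (Rcor2fl/fl) and 25479847 fragments (Rcor2cko) were recovered. Fragments could be recovered for 54 of the 59 members, those with 1 transcript. For a transcript of 5000 nt, 3 fragments correspond to 0.0331 FPKM in the control library and 0.0245 FPKM in the Rcor2cko library. The targeted gene, Rcor2, was at 90.6 and 55.7 FPKM, a value for the whole gene and not for the floxed exons alone. Xist, the RNA of the inactive X chromosome, was at 177 and 0.109 FPKM, and the Y-linked Eif2s3y at 0 and 19.8 FPKM, so that the libraries also differed in the sex of their embryos. With 1 library per genotype there is no replicate error and no test of the genotypes. The 95% exact (Clopper-Pearson) intervals given below are those of the log2 ratio of fragments and cover counting error only. Log2 changes compare FPKM + 0.1 in the Rcor2cko library with that in the control, and the added 0.1 shrinks the change of low genes. In tissue of mixed cell types, fewer cells of a type and less RNA per cell cannot be told apart.

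Of the 59 members, 28 reached 1 FPKM in at least 1 library and were compared, while the other 31 were below this level in both. Most of the 28, like most of all genes at this level, lay within 1.5-fold between the libraries. Col22a1 and Col9a2 were higher by more than 1.5-fold in the Rcor2cko library, 7.14% of the 28 members, where 3.79% of all 11777 genes at this level were higher. Col12a1 was more than 1.5-fold lower, 3.57% of the members, beside 1.76% of all genes. All of these are fibril-associated collagens. None of the 15 basement membrane genes and none of the 5 fibrillar collagens compared was past 1.5-fold. The median log2 change was -0.09 for the 28 members and -0.03 for all 11777 genes. Col22a1 and Col9a2 reached 1 FPKM only in the Rcor2cko library and Col4a6 only in the control library, so that 25 members were at this level in both. At the control level of Col22a1 (0.519 FPKM) any gene so compared is past 1.5-fold, so that its count was set by the filter. Among the 25 members, 0 were more than 1.5-fold higher and 1 was lower, beside 262 and 128 of 11331 genes at this level in both.

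**Figure D1:**
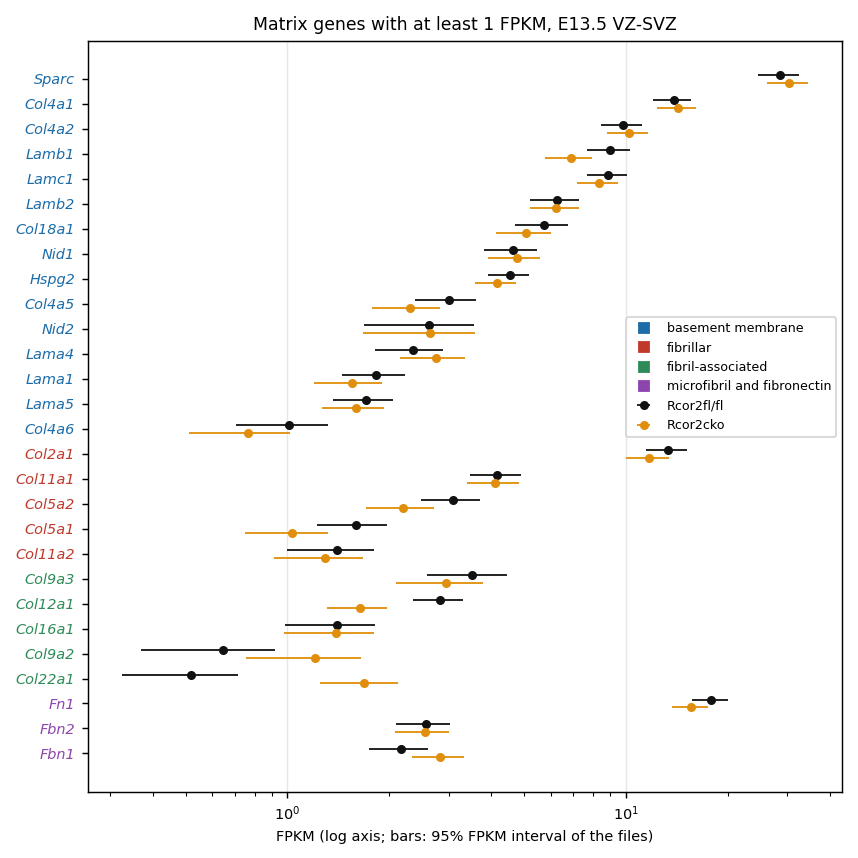
FPKM on a log axis of the 28 matrix genes with at least 1 FPKM, in the control library (black) and the Rcor2cko library (orange), with the 95% FPKM intervals of the files as bars and gene names coloured by class. Sparc was the highest member in both libraries (28.6 and 30.3 FPKM), and only Col22a1 and Col12a1 have bars that do not overlap between the libraries.

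Summed over all 59 members, the matrix genes were at 165 FPKM in the control library and 160.1 FPKM in the Rcor2cko library. These sums were 0.0529% and 0.0522% of the FPKM of all genes. The 23 basement membrane genes made up most of them, at 106 and 104 FPKM. The 11 fibrillar collagens summed to 25.1 and 22.9 FPKM. Collagen VI, the fibrillins and fibronectin summed to 23.1 and 21.5 FPKM, and the fibril-associated collagens to 9.78 and 9.87 FPKM. The 4 transmembrane collagens summed to 0.962 and 1.46 FPKM, and the 5 other collagens to 0.498 and 0.591 FPKM.

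Sparc, a secreted calcium-binding glycoprotein that binds collagen, was at 28.6 FPKM in the control library and 30.3 FPKM in the Rcor2cko library. The gene lies on chromosome 11 from 55208002 to 55233582 and ranked 2208th and 2010th among all genes by FPKM. From 1133 and 1622 fragments, the interval of its log2 ratio ran from -0.03 to 0.19 and included 0.

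Col4a1 and Col4a2 encode the chains of the common collagen IV trimer. Col4a1 was at 13.8 and 14.2 FPKM (1673 and 2325 fragments, interval -0.05 to 0.13). Col4a2 was at 9.80 and 10.2 FPKM (1151 and 1622 fragments, interval -0.05 to 0.17). Both intervals lay within 1.5-fold and included 0. The level of Col4a1 relative to Col4a2 was 1.41 (95% exact interval 1.31 to 1.52) in the control library and 1.39 (1.31 to 1.48) in the Rcor2cko library.

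The X-linked pair, whose chains form another collagen IV network, was lower in the Rcor2cko library by less than 1.5-fold. Col4a5 went from 3.0005 to 2.30 FPKM, with a log2 difference of -0.37 and overlapping 95% FPKM intervals (2.39 to 3.61 and 1.78 to 2.82). Col4a6 went from 1.01 to 0.767 FPKM, with a log2 difference of -0.36 (123 and 126 fragments, interval -0.77 to -0.03). Col4a5 was 2.97 times the level of Col4a6 in the control library and 3.0017 times in the Rcor2cko library. Across the 411 X-linked genes compared the median log2 change was 0.02, and across 11349 autosomal genes -0.03. The part of embryo sex in the values of this pair was not tested. Col4a3 and Col4a4, the third pair, were at most at 0.186 FPKM.

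Among the laminins, the beta 1 chain had the largest difference. Lamb1 (chromosome 12, 31950099 to 32014509) went from 8.98 to 6.87 FPKM, with a log2 difference of -0.38 (945 and 976 fragments, interval -0.52 to -0.26). Lamb2, the other widely expressed beta chain, was at 6.26 and 6.22 FPKM (interval -0.16 to 0.14). The level of Lamb1 relative to Lamb2 was 1.44 (95% exact interval 1.297 to 1.59) in the control library and 1.10 (1.01 to 1.21) in the Rcor2cko library, and these intervals do not overlap. Lamc1, the gamma chain of most laminins, was at 8.88 and 8.33 FPKM (interval -0.20 to 0.02).

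The alpha chains, which bind cell-surface receptors and set the laminin type, had a lower summed level than the beta chains or the gamma chains in both libraries. Lama4, typical of vessels, was at 2.35 and 2.75 FPKM (259 and 410 fragments), and its interval from -0.0007 to 0.46 just included 0. Lama1, typical of the pial and early embryonic basement membrane, was at 1.83 and 1.55 FPKM (322 and 368 fragments, interval -0.46 to -0.02). Lama5 was at 1.71 and 1.59 FPKM (interval -0.31 to 0.10). Summed over all members, the 5 alpha chains were at 6.27 and 6.39 FPKM, the 3 beta chains at 15.3 and 13.2 FPKM and the 3 gamma chains at 9.35 and 8.998 FPKM. Lama2, Lama3, Lamb3 and Lamc3 were each at most at 0.466 FPKM.

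**Figure D2:**
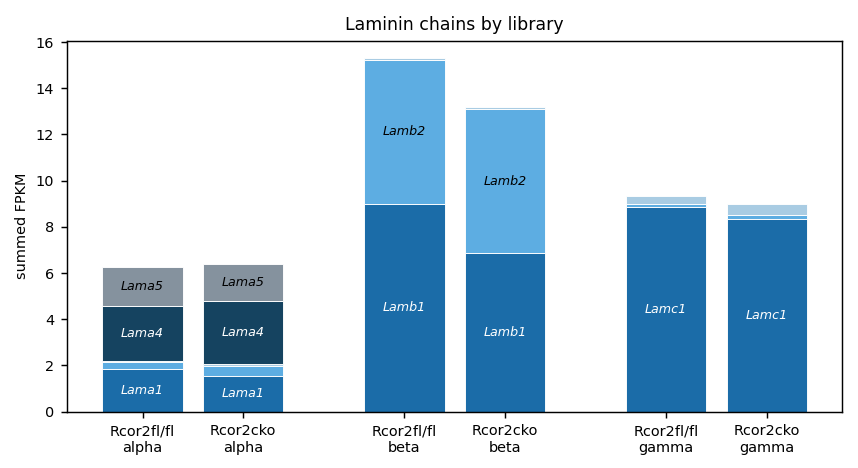
Summed FPKM of the laminin alpha, beta and gamma genes in the Rcor2fl/fl and Rcor2cko libraries, with 1 stacked segment per gene and names on segments above 0.9 FPKM. The beta bar is shorter in the Rcor2cko library (13.2 against 15.3 FPKM), in the Lamb1 segment, while the alpha and gamma bars are nearly equal.

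Genes of the proteins that join laminin to collagen IV were all within 1.5-fold. Nid1 was at 4.64 and 4.75 FPKM (interval -0.13 to 0.20) and Nid2 at 2.63 FPKM in each (interval -0.25 to 0.25). Hspg2, which encodes perlecan, was at 4.56 and 4.16 FPKM, from 1201 and 1482 fragments, and its interval from -0.24 to -0.02 lay just below 0. Col18a1, a basement membrane collagen whose end is cleaved to endostatin, was at 5.71 and 5.07 FPKM, with a log2 difference of -0.17. In the control library, where transcripts were listed apart, the shorter of its RefSeq transcripts (5044 nt) held 98.7% of this level. Col15a1, its nearest relative, was under 1 FPKM in both, at 0.766 and 0.552 FPKM.

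Col2a1, best known from cartilage, was the highest fibrillar collagen, at 13.3 FPKM in the control library and 11.7 FPKM in the Rcor2cko library, with a log2 difference of -0.18. Its 95% FPKM intervals were 11.5 to 15.1 and 10.04 to 13.4. The gene lies on chromosome 15 from 97806033 to 97835155 on the minus strand. Among its transcripts in the control library, the longer (5133 nt) was at 13.3 FPKM and the shorter (4929 nt) at 0.000183 FPKM, with an upper bound of 0.0195 FPKM. They differ by 204 nt, the length of an exon at chr15:97830834-97831037 that 4 of 12 annotated transcripts hold. Exon 2 of this gene encodes a cysteine-rich domain, and the form with it, known as type IIA, is that of tissues before or outside mature cartilage. The exon is printed because it is the stretch that sets the transcripts apart, with its 10 cysteine codons in capitals.
Col2a1 204-nt exon: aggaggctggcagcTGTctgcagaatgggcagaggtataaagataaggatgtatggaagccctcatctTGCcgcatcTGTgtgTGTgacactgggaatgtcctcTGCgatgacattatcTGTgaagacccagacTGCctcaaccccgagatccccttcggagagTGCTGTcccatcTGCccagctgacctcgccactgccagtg
The Rcor2cko values were given per gene, so that the transcripts could not be compared between the libraries.

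Type V collagen, which joins type I in fibres and controls their width, had the largest differences among the 5 fibrillar genes compared. Col5a1 (chromosome 2, 27741945 to 27895034) went from 1.597 to 1.03 FPKM, from 247 and 216 fragments. Its log2 change of -0.58, or 1.497-fold lower, was just short of 1.5-fold, while the ratio of fragments without pseudocount was -0.63 (interval -0.90 to -0.36). Col5a2 went from 3.09 to 2.20 FPKM, with a log2 difference of -0.47 (374 and 360 fragments, interval -0.70 to -0.28). Type XI collagen, of the same subfamily, was at closer levels. Col11a1 was at 4.17 and 4.12 FPKM (interval -0.18 to 0.14), and Col11a2 at 1.40 and 1.29 FPKM (interval -0.45 to 0.21). All 5 fibrillar collagens compared had lower values in the Rcor2cko library, as did 6785 of all 11777 genes. Their median on the log2 scale was -0.18, and it was 0.10 when the other 6 fibrillar collagens, all under 1 FPKM, were included.

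Col22a1, a fibril-associated collagen of tissue junctions, had the largest change of the members compared. It lies on chromosome 15 from 71626225 to 71864657 on the minus strand, with 64 exons in its longest coding transcript. It went from 0.519 to 1.68 FPKM, from 58 fragments in the control library to 254 in the Rcor2cko library. The log2 change was 1.53, or 2.88-fold, and the interval of the fragment ratio ran from 1.28 to 2.13. Since Col22a1 was compared only through its Rcor2cko level, that it was past 1.5-fold was set by the filter.

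Type IX collagen is a trimer of the products of Col9a1, Col9a2 and Col9a3, of which Col9a2 alone had an interval away from 0. Col9a2 went from 0.645 to 1.203 FPKM, with a log2 difference of 0.81, or 1.75-fold, from 31 and 78 fragments (interval 0.28 to 1.55). Col9a3, the highest of the 3, was at 3.52 and 2.94 FPKM, with a log2 difference of -0.25 (176 and 198 fragments, interval -0.57 to 0.04). The level of Col9a3 relative to Col9a2 was 5.46 (95% exact interval 3.71 to 8.28) in the control library and 2.44 (1.87 to 3.22) in the Rcor2cko library. Col9a1 stayed under 1 FPKM, at 0.158 and 0.202 FPKM.

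Col12a1, a long fibril-associated collagen of dense connective tissue, was the member that fell past 1.5-fold. It lies on chromosome 9 from 79446798 to 79566638 on the minus strand. It went from 2.82 to 1.64 FPKM, with a log2 difference of -0.75, or 1.68-fold, from 610 and 479 fragments (interval -0.96 to -0.61). Its 95% FPKM intervals, 2.35 to 3.298 and 1.31 to 1.97, do not overlap. Col16a1 was at 1.40 and 1.39 FPKM (interval -0.35 to 0.32).

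Fibronectin, a ligand of many integrins that is abundant around vessels, was the second highest member. Fn1 (chromosome 1, 71632094 to 71699774) was at 17.8 and 15.6 FPKM, with a log2 difference of -0.19, and its interval from -0.27 to -0.12 lay below 0 on 2729 and 3226 fragments. The fibrillins form the microfibrils of elastic tissue. Fbn1 was at 2.17 and 2.83 FPKM, with a log2 difference of 0.37 (397 and 700 fragments, interval 0.20 to 0.56), while Fbn2 was at 2.56 and 2.54 FPKM (interval -0.18 to 0.16). Fbn1 was thus at 0.848 times the level of Fbn2 in the control library (95% exact interval 0.741 to 0.970) and 1.11 times in the Rcor2cko library (1.0003 to 1.24). Collagen VI, a microfibril of connective tissue, was at most at 0.330 FPKM for Col6a1, Col6a2 and Col6a4, and Col6a6 was listed at 0 in both libraries.

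Fragments were recovered for 25 of the 28 members compared. The interval lay above 0 in 3 (Col22a1, Col9a2 and Fbn1), or 12% of them, where 13.7% of 8460 genes with recovered fragments had such an interval. It lay below 0 in 8, or 32.0%, beside 23.9% of these genes. The 8 were Col12a1, Col5a1, Col5a2, Col4a6, Lamb1, Lama1, Fn1 and Hspg2. The remaining 14 intervals included 0.

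**Figure D3:**
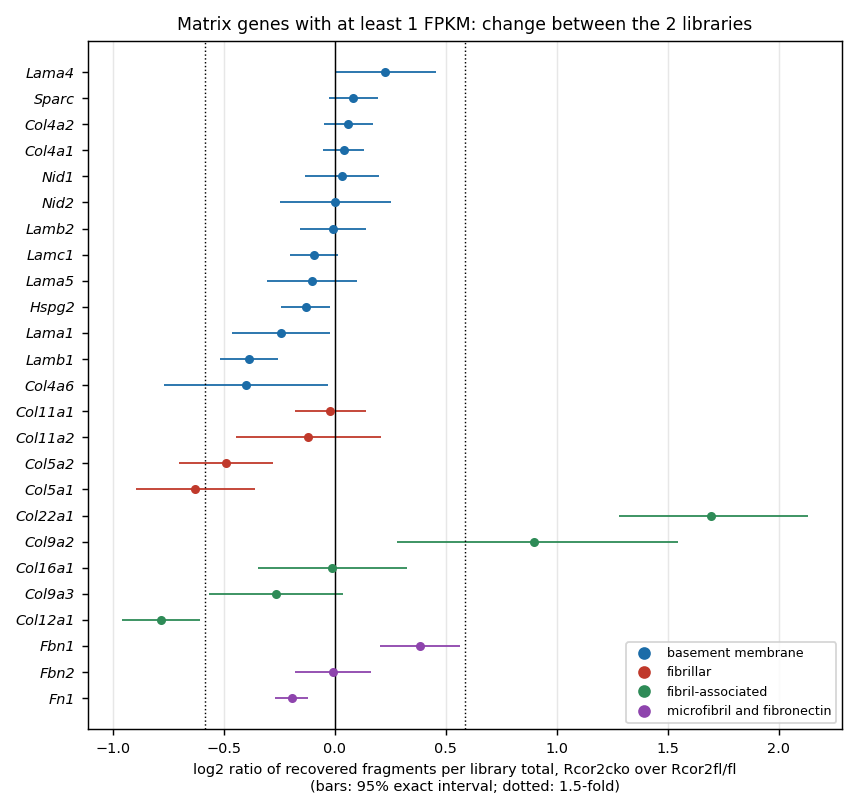
Log2 ratio of recovered fragments per library total, Rcor2cko over Rcor2fl/fl, for the 25 compared members with recovered fragments, with 95% exact intervals as bars, 1.5-fold as dotted lines and colours by class. Basement membrane genes lie inside 1.5-fold, while among the fibril-associated collagens Col22a1 lies to the right at 1.70 and Col12a1 to the left at -0.78.

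Members under 1 FPKM in both libraries had intervals above 0 more often than below it, which was not tested. Of these 31 genes, 24 had at least 10 recovered fragments over both libraries, a limit chosen after the data were seen, 5 had fewer and 2 had no recovered fragments. The interval lay above 0 in 6 of the 24, or 25%, beside 12.8% of 1930 genes at this level. It lay below 0 in 1, or 4.17%, beside 5.44%. The 7 genes outside 0 are named here after their values were seen.

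Fibrillar type I collagen, the main fibre of the meninges and of bone, belonged to those 6. Col1a1 was at 0.0707 FPKM (6 fragments) in the control library and 0.236 FPKM (27 fragments) in the Rcor2cko library, with an interval from 0.43 to 3.30. Col1a2 was at 0.257 and 0.580 FPKM (24 and 73 fragments, interval 0.49 to 1.90). Col3a1, which is made by the same cells, was at 0.662 and 0.856 FPKM (67 and 117 fragments), and its interval from -0.08 to 0.82 included 0. All of these were under 1 FPKM in both libraries, so that their place below the 5 fibrillar collagens compared follows in the main from the filter.

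The other low members with an interval above 0 came from several classes. Col24a1, a minor fibrillar collagen, went from 0.0688 to 0.260 FPKM (9 and 46 fragments, interval 0.87 to 3.13). Col14a1, a fibril-associated collagen, went from 0.153 to 0.465 FPKM (18 and 74 fragments, interval 0.85 to 2.44). Col8a2, a network-forming collagen of the corneal endothelium, went from 0.0385 to 0.276 FPKM (3 and 29 fragments, interval 1.15 to 5.20). Col4a4 went from 0.0558 to 0.186 FPKM (8 and 36 fragments, interval 0.60 to 3.05), while its head-to-head partner Col4a3 was at 0.0505 and 0.0560 FPKM (8 and 12 fragments, interval -1.26 to 1.65). The intervals of this pair overlap, and the difference between its members was not tested. Among the 5 genes with fewer than 10 fragments, Col8a1 had 0 fragments in the control library and 8 in the Rcor2cko library. Col13a1 had 0 and 2, Col10a1 had 0 and 1, Col5a3 had 1 and 4, and Col6a4 had 4 and 3. These are fragment numbers not scaled for depth, and the Rcor2cko library had the larger total. The gene with an interval below 0 was Col28a1, at 0.171 and 0.0195 FPKM (13 and 2 fragments, interval -6.33 to -0.99). Among the members without recovered fragments, Col25a1, a transmembrane collagen of neurons, was at 0.217 FPKM (95% FPKM interval 0.0864 to 0.348) and 0.610 FPKM (0.283 to 0.937).

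**Figure D4:**
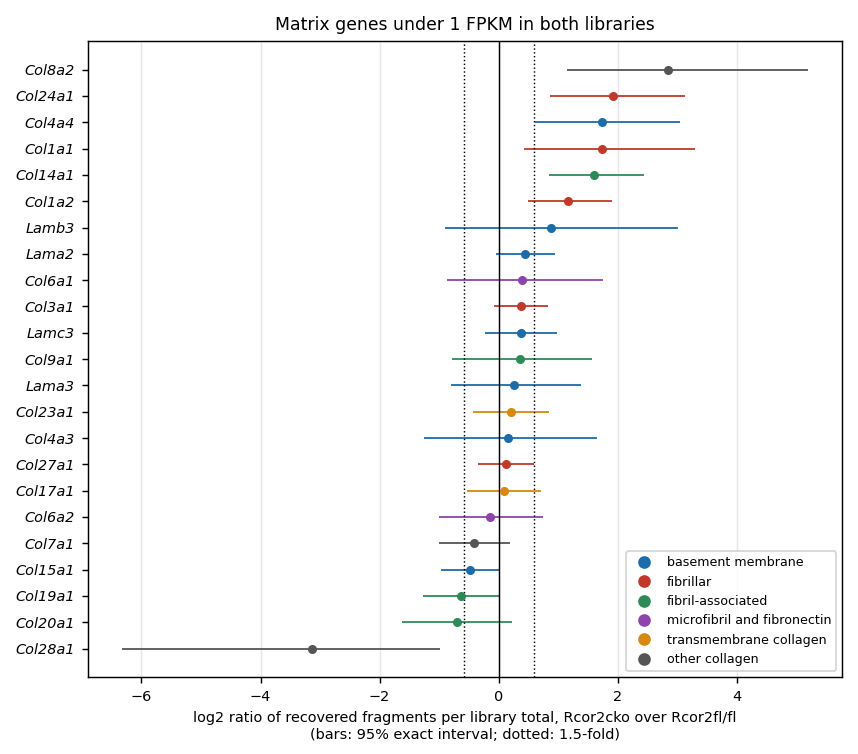
Log2 ratio of recovered fragments per library total, Rcor2cko over Rcor2fl/fl, for 23 of the 24 matrix genes under 1 FPKM in both libraries with at least 10 fragments, with 95% exact intervals as bars, 1.5-fold as dotted lines and colours by class. The intervals of 6 genes at the top lie above 0 and that of Col28a1 at the bottom lies below 0, and the other 16 shown include 0.

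Vessels and meninges are known to express many matrix genes, and markers of these tissues are given beside them. Which cells the matrix RNA of these libraries came from was not tested. The 12 endothelial markers, all above 1 FPKM in at least 1 library, summed to 44.0 FPKM in the control library and 48.6 FPKM in the Rcor2cko library. Of the 12, 11 had higher values in the Rcor2cko library, as did 4992 of all 11777 genes, with a median log2 change of 0.20, and none was past 1.5-fold. Fragments were recovered for 8 of the 12, and the intervals of all 8 included 0. The 8 pericyte markers summed to 25.9 and 30.4 FPKM. Of the 6 compared, 5 had higher values, beside the same 4992 of 11777 over all genes, with a median log2 change of 0.39, and none was past 1.5-fold. Among all 8, 5 had higher and 3 had lower values in the Rcor2cko library. Without Rgs5 the sums were 16.4 and 17.7 FPKM. Rgs5 was at 9.50 and 12.8 FPKM (interval 0.21 to 0.63) and Notch3 at 6.88 and 6.23 FPKM (interval -0.27 to -0.02). Anpep, under 1 FPKM in both libraries and named after its values were seen, was at 0.608 and 0.256 FPKM (37 and 21 fragments, interval -2.10 to -0.44). The part of vascular cells in the values of the basement membrane genes was not tested.

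Of 14 markers of meningeal fibroblasts, 11 were under 1 FPKM in both libraries, among them Foxc1 (0.419 and 0.414 FPKM), a transcription factor of the meninges. Lum and Slc6a13 were listed at 0 in the control library and were at 0.0419 and 0.0604 FPKM in the Rcor2cko library. Ogn was at 0.0226 and 0.319 FPKM (1 and 19 fragments, interval 1.16 to 9.19), and Dcn at 0.533 and 0.0985 FPKM. Over the whole list 10 markers had higher and 4 had lower values in the Rcor2cko library. Of all 11777 genes compared, 4992 had higher values, but these genes all reached 1 FPKM and 11 of the 14 markers did not. Of 1930 genes under 1 FPKM with at least 10 fragments, 12.8% had an interval above 0 and 5.44% one below it. The 3 markers compared all rose past 1.5-fold in the Rcor2cko library, beside 3.79% of all genes. Crabp2, a retinoic acid-binding protein, rose from 2.18 to 7.30 FPKM, Pdgfra, also a marker of oligodendrocyte progenitors, from 0.267 to 1.22 FPKM, and the chemokine Cxcl12 from 12.6 to 19.5 FPKM. Pdgfra reached 1 FPKM only in the Rcor2cko library, and at its control level any gene so compared is past 1.5-fold. The sum of the 14 was 16.8 and 29.9 FPKM, and 4.16 and 10.4 FPKM without Cxcl12. All 8 choroid plexus markers had higher values in the Rcor2cko library, beside the 4992 of 11777 over all genes compared. Of these 8 markers, 6 were under 1 FPKM in both libraries, so that this share comes from genes at higher levels. Their sums were 1.27 and 62.5 FPKM, of which Ttr, listed at 0 in the control library, made up 57.8 FPKM. Ttr and Aqp1 (0.352 and 1.40 FPKM) were at a level to be compared, both only through the Rcor2cko library. That both were past 1.5-fold was therefore set by the filter. The part of meningeal and choroid plexus tissue in the values of Col1a1, Col1a2 and the other low collagens was not tested. As for the dissected tissue itself, all 8 radial glia markers were present above 1 FPKM in at least 1 library (sums of 873 and 1021 FPKM). Without Fabp7 these sums were 501 and 482 FPKM, and 3 of the 8 markers had higher and 5 had lower values in the Rcor2cko library. The 7 matched markers of projection neurons were also above 1 FPKM in at least 1 library (1548 and 1501 FPKM).

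Genes that modify collagens, bind the matrix or belong to it outside the families above were counted in the same way, beside the 3.79% of all genes that were higher and the 1.76% that were lower. Of 19 genes of collagen modification and cross-linking, 13 were compared, with a median log2 change of -0.02, and 1 was past 1.5-fold. It was P4ha3, a subunit of the enzyme that hydroxylates prolines of collagen, which rose from 0.686 to 1.82 FPKM (28 and 100 fragments, interval 0.78 to 2.06). P4ha3 reached 1 FPKM only in the Rcor2cko library. P4hb, the highest gene of this list, was at 70.7 and 63.2 FPKM (interval -0.24 to -0.10). Serpinh1, the collagen chaperone Hsp47, was at 35.02 and 37.5 FPKM. Of the 8 compared genes of this list with recovered fragments, the interval lay above 0 in 1, below 0 in 3 and included 0 in 4. Over all genes with recovered fragments, 13.7% of intervals lay above 0 and 23.9% below it. Of 18 receptor genes, 9 were compared and none was past 1.5-fold, with a median of -0.05. Ddr1, the highest of them, was at 43.0 and 41.6 FPKM. Itgb1, the beta chain of most collagen and laminin integrins, was at 32.2 and 30.7 FPKM (interval -0.15 to 0.01). Dag1, the dystroglycan that binds laminin, was at 17.3 and 15.01 FPKM (interval -0.31 to -0.10). Of the 8 compared receptor genes with recovered fragments, the interval lay above 0 in 3, below 0 in 1 (Dag1) and included 0 in 4.

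Of 30 other matrix proteins, 19 were compared, with a median of -0.05, and 1 was past 1.5-fold in each direction. Bcan, a proteoglycan of the brain matrix, fell from 20.2 to 9.57 FPKM, with a log2 difference of -1.07. Mmp2, an enzyme that degrades collagen, rose from 0.876 to 1.64 FPKM, with a log2 difference of 0.84 (47 and 119 fragments, interval 0.41 to 1.42). Mmp2 also reached 1 FPKM only in the Rcor2cko library. Agrn, the basement membrane proteoglycan agrin, was at 69.6 and 69.99 FPKM, with an interval from -0.03 to 0.05.

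**Figure D5:**
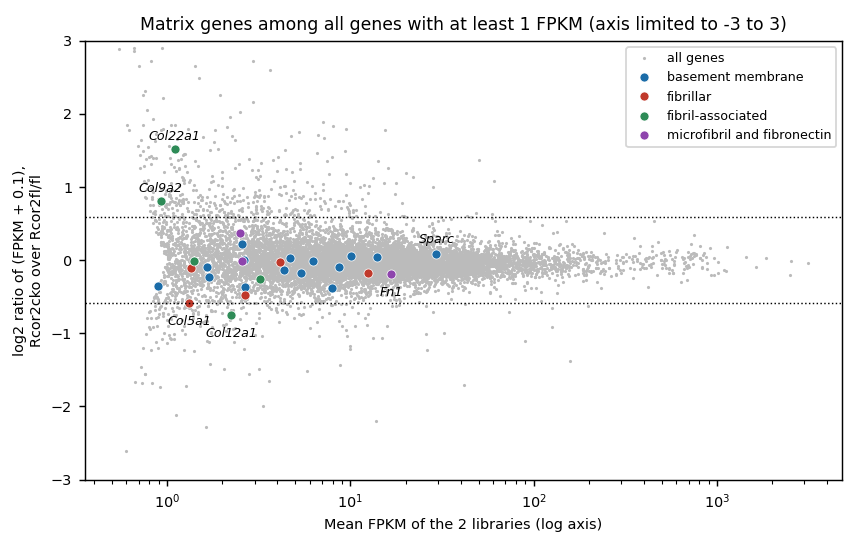
Log2 change of FPKM + 0.1 from control to Rcor2cko, against the mean FPKM of the libraries on a log axis, for all 11777 genes that reached 1 FPKM in at least 1 library (grey) and the 28 matrix genes (coloured by class), with 1.5-fold as dotted lines and the vertical axis limited to -3 to 3. Most matrix genes lie between the dotted lines, with Col22a1 (1.53) and Col9a2 (0.81) above them and Col12a1 (-0.75) below them.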

How the data were processed

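RNA of the VZ–SVZ of E13.5 cortex was measured in 1 Rcor2fl/fl and 1 Rcor2cko library, made with a stranded mRNA kit. The authors mapped the reads to mm9 and deposited FPKM values with 95% FPKM intervals. The submitters' processing notes name TopHat 1.3.3 and Cufflinks 1.2.0, while the methods name a later TopHat version and Cuffdiff, and which versions made the files could not be settled. Whether strand was used in counting was not given in the sources used here. Rows are transcripts in the Rcor2fl/fl file (27641) and genes in the Rcor2cko file (21896), and transcripts of a gene were summed. E15.5 was not analysed here.

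Genes that reached 1 FPKM in at least 1 library were contrasted by log2 of FPKM + 0.1, without further scaling, and counted as changed above 1.5-fold. For 14350 genes (1 transcript, 1000 nt or longer) fragments were recovered from FPKM times length less a fitted offset (194 nt and 200.9 nt). Of values up to 100 fragments, 99.3% of 4013 and 99.4% of 3959 were within 0.1 of a whole number. Intervals are exact (Clopper-Pearson) and cover counting error only, since PCR fragments without molecular identifiers are not independent molecules. The steps were tested on simulated data.

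All 59 members were found in GENCODE vM1 by symbol and position. Every member compared was named, and lower members as stated. The values of 1 member are not reported here, although it is counted in the sums and counts. Of the other lists, at most 4 genes each were named, by level or size of change, except that Foxc1, Dcn, Lum, Ogn, Slc6a13 and Anpep were named after their values were seen. The members, classes, pairs and lists were chosen with earlier results of these data known. Alternatives were other pseudocounts, scalings, filters, fold changes, row choices and intervals. Python 3.11.15, numpy 2.4.6, pandas 2.3.3, scipy 1.17.1 and matplotlib 3.10.9 were used.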

Additional observations from a re-analysis of the deposited data

How the results depend on the processing

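Of 28 named members, 25 kept their side of 1.5-fold under every alternative run on them, and no member past 1.5-fold changed sign. Col12a1 and Col9a2 were no longer past it with a pseudocount of 1 (log2 changes of -0.53 and 0.42), and Col5a1 passed it with a pseudocount of 0.01 (-0.62). In place of 2 members up and 1 down, there were 1 and 0 with a pseudocount of 1 or a 2-fold change, 2 and 2 with a pseudocount of 0.01, 10 and 2 without a filter, 0 and 1 when both libraries had to reach 1 FPKM, 0 and 0 when either had to reach 5 FPKM, and 1 and 1 with non-overlapping 95% FPKM intervals. In the settings that drop Col22a1 and Col9a2 from the genes compared, these genes are below the filter. The median of the fibrillar collagens was 0.10 without a filter, which adds 6 collagens under 1 FPKM, and that of the basement membrane genes was then 0.03 in place of -0.09. It was -0.01 without X-linked genes, an alternative chosen after the data were seen.

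The members' share of summed FPKM was 0.0555% in the Rcor2fl/fl library with the highest row per gene, and 0.0539% (Rcor2fl/fl) and 0.0533% (Rcor2cko) when genes with a status other than OK were left out. Over all genes, 446 up and 207 down became 243 and 100 with a pseudocount of 1, 1287 and 672 unfiltered, 139 and 69 at 5 FPKM in either library, 262 and 128 at 1 FPKM in both, and 162 and 62 above 2-fold. The highest row per gene gave 1214 up and 192 down, since it lowers only the Rcor2fl/fl library. Apart from these, the cause was not tested. No paired analysis was possible because each genotype has 1 library, and for the same reason none could be left out. Depth limits the members under 0.1 FPKM most.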
